A study of Penaeus japonicus with 16 samples.

Results

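Heat shock proteins and other molecular chaperones of the kuruma shrimp (Penaeus japonicus, the Marsupenaeus japonicus of the series title) are described here across 5 tissues of shrimp that had received no treatment. They were taken as every probe that was not an array control and not described by a name starting wsv (white spot syndrome virus), and whose description, in any letter case, held "heat shock", "hsp", "t-complex protein", "chaperonin", "dnaj" or "crystallin". This gave 79 of 13875 probes, with 56 distinct descriptions. By description, 3 were small heat shock proteins, 9 were subunits of the chaperonin CCT, 2 were the mitochondrial chaperonins HSP10 and HSP60, 16 were HSP40 proteins, 16 were HSP70 proteins or their co-factors and 8 were HSP90 proteins or a co-factor. A further 2 belonged to heat shock factors, 6 carried the name heat shock protein 67b2 and 5 were heat shock proteins of no stated class. The last 12 matched the words but were put in none of these classes, a Bardet-Biedl chaperonin probe among them.

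The study compared gene expression between gills (arrays 1 to 3), hemocytes (the circulating blood cells, arrays 1 to 4), hepatopancreas (the digestive gland, arrays 1, 3 and 4), lymphoid organ (a shrimp immune organ, arrays 1 to 3) and muscle (arrays 1 to 3). All 16 samples came from apparently healthy live animals, and tissue was the only factor. Total RNA was labelled with the dye Cy3 and hybridised to single-colour Agilent arrays. The labels do not say that arrays of a tissue came from separate shrimp, so the p-values below measure only the spread between these samples, which may be technical.

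Chaperones bind unfolded or partly folded proteins and keep them from aggregating. Small heat shock proteins hold unfolding clients without ATP, HSP70 with its HSP40 partners folds and passes on clients in cycles of ATP use, HSP90 matures signalling and other proteins, and the ring-shaped chaperonin CCT (also TRiC) encloses clients, with actin and tubulin as the classic ones. In muscle, chaperones of several of these classes are known to take part in the assembly and upkeep of the contractile filaments.

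A level below is the log2 of a probe's processed signal over the 75th percentile of signals on its array, so that a level of 0 is that percentile. A difference is the mean level of one tissue minus the mean over the other 4 tissues, also in log2 units, and a member was called when limma gave an adjusted p below 0.05 and the difference was at least 2-fold. Levels of different probes were not set against each other, because probes differ in how brightly they hybridise. In whole tissues, fewer cells of a type and less RNA per cell cannot be told apart. Of the 79 members, 71 were detected on every array of at least 1 tissue and were tested among 10317 probes, and 38 were detected on all 16 arrays, as were 3238 of all probes. Since a member seen in a single tissue was tested only because of that tissue, counts over the 71 describe those probes and not all 79.

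The share of probes detected per array lay between 41.0% and 82.3%, and the 75th percentile of signal between 31.3 and 299.7 units. Arrays of a tissue correlated with each other at 0.837 to 0.957 over probes (18 pairs), and arrays of different tissues at 0.292 to 0.828 (102 pairs). Probes chosen by words as tissue markers were highest in their own tissue for 21 of 26 tested muscle probes (contractile proteins), 46 of 59 hepatopancreas probes (digestive enzymes and hemocyanin) and 20 of 32 hemocyte probes. For gills it was 13 of 32, with 14 of the 32 highest in hepatopancreas, and no marker was chosen for the lymphoid organ. The 16 arrays lay on 2 slides of 8, with each tissue on both, so that slide could be set apart from tissue.

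Tissue differences were found for 47 of the 71 tested members by limma's F-test over the 5 tissues, against 69.1% of all tested probes, so the members' share of 66.2% was close to the background. Muscle was the tissue with the most called members: 23 were higher there, where 20.4% of all tested probes were, and 16 were lower, where 18.4% of all were. These counts are 32.4% and 22.5% of the tested members. Hepatopancreas had 11 higher members (background 20.5%) and 14 lower ones (background 23.4%), and hemocytes had 10 higher (background 18.8%) and 16 lower (background 27.1%). Gills had 10 higher members, 14.1% of those tested, beside a background of 9.15%, and 1 lower member beside 8.16%. The lymphoid organ had 1 higher member (background 6.42%) and 3 lower ones (background 2.82%).

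By mean level, 30 of the 71 tested members (42.3%) were highest in muscle, as were 28.1% of all tested probes. Hepatopancreas was highest for 13 members (18.3%, against 24.5% of all), hemocytes for 10 (14.1% against 26.6%), the lymphoid organ for 10 (14.1% against 8.54%) and gills for 8 (11.3% against 12.3%). The median difference of the members was 0.17 in muscle, where that of all tested probes was -0.13, and -0.71 in hepatopancreas, where it was -0.34. Without the 12 probes set aside as other matches of the words, 60 tested members remained. Of these 23 were higher and 14 lower in muscle, and 5 were higher and 14 lower in hepatopancreas.

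Between single pairs of tissues, called at an adjusted p below 0.05 with no fold limit, hepatopancreas and muscle differed in the most members, 41 of 71 (57.7%), beside a background of 45.7%. Of these 24 were higher in muscle and 17 in hepatopancreas. Muscle differed from hemocytes in 32 members (background 42.1%), from the lymphoid organ in 31 (background 32.0%) and from gills in 27 (background 28.7%). Hepatopancreas differed from hemocytes in 27 members (background 52.9%), from gills in 21 (background 33.8%) and from the lymphoid organ in 14 (background 24.7%). Gills and hemocytes differed in 12 (background 26.5%), hemocytes and the lymphoid organ in 7 (background 21.5%), and gills and the lymphoid organ in 5 (background 9.15%). The muscle pairs were thus at or above the share of all probes and the pairs without muscle below it.

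The balance of calls moved with the scaling. When arrays were scaled on the probes detected on every array, the median difference of all tested probes moved from -0.34 to 0.31 in hepatopancreas, from -0.13 to -0.50 in muscle and from -0.04 to -0.39 in hemocytes. The members called then became 19 higher and 23 lower in muscle, 15 higher and 5 lower in hepatopancreas, and 5 higher and 17 lower in hemocytes. Of all tested probes, 40.3% were then called in muscle in either direction, 37.5% in hepatopancreas and 45.3% in hemocytes. With quantile normalization the members called were 19 higher and 22 lower in muscle and 10 higher and 20 lower in hepatopancreas. The shares of all tested probes, in either direction, were then 43.8% in muscle and 50.9% in hepatopancreas. Within a single slide there were 1 or 2 arrays per tissue. Fewer members were called in muscle within slide 2 than within slide 1, and fewer of all tested probes too. Leaving out an array of hepatopancreas moved its 14 lower members to 6 without array 1, 9 without array 3 and 28 without array 4, and the 10 higher members in gills became 6 without gills 2 or without gills 3. All tested probes called in either direction in hepatopancreas were then 35.7%, 36.6% and 45.4%, and in gills 9.49% and 11.3%. A further fit left out the 4 arrays of the second row of slide 2 (gills 3, hemocytes 4, hepatopancreas 4 and muscle 3), with 73 members tested. In that fit 21 members were higher and 18 lower in muscle, and 27 were lower in hepatopancreas. In gills 6 were higher, and in the lymphoid organ 8 were higher. The shares of all tested probes, in either direction, were then 31.9% in muscle, 41.4% in hepatopancreas, 12.03% in gills and 7.65% in the lymphoid organ.

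**Figure D1:**
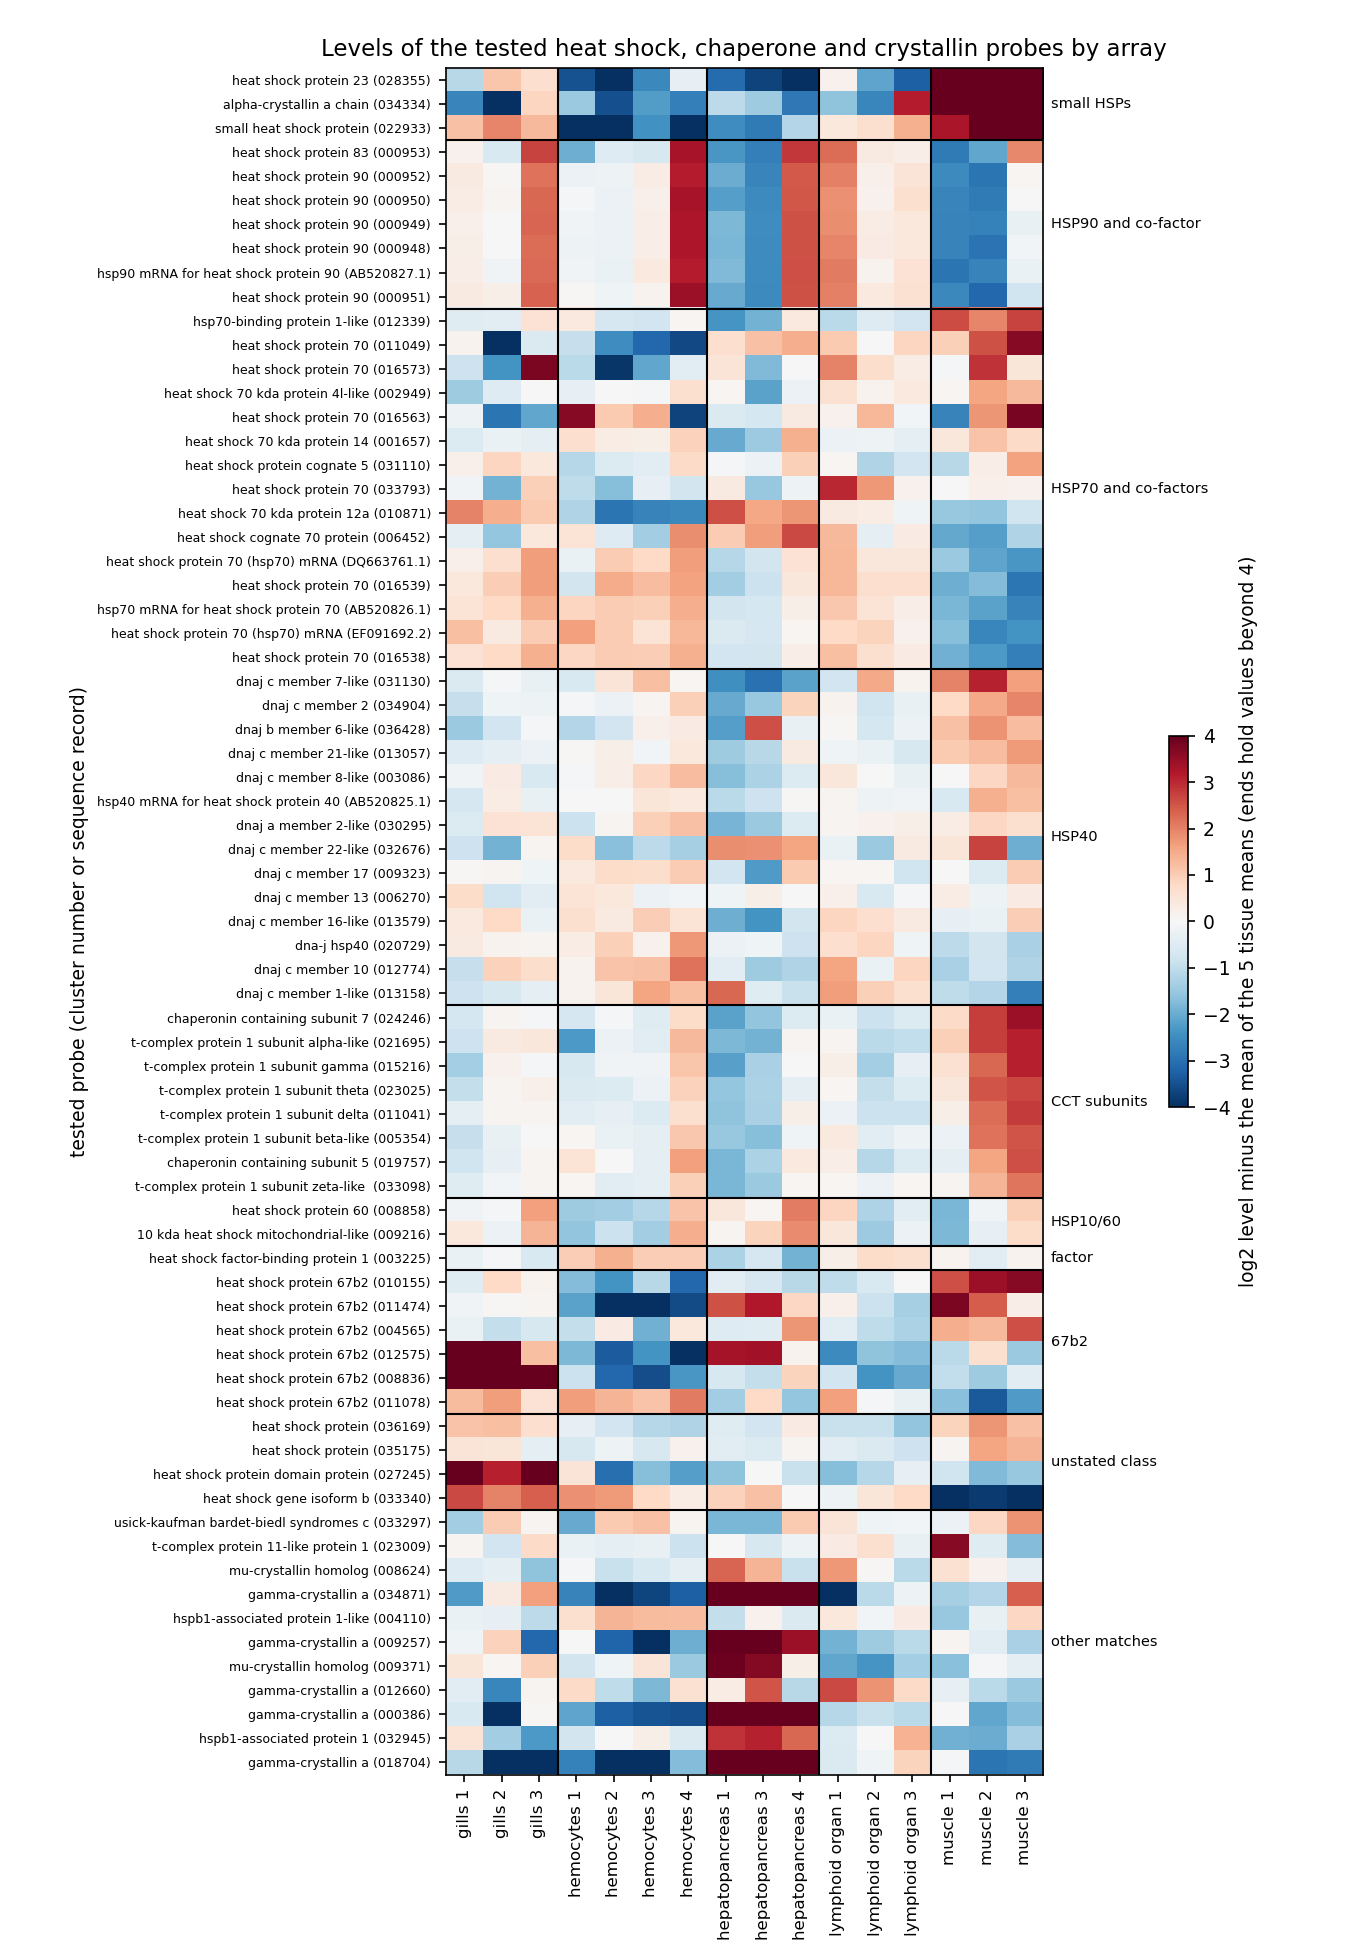
Log2 level of each member (rows, grouped by family) on each of the 16 arrays (columns, grouped by tissue), each member shown relative to its own mean. The CCT rows are high on the muscle arrays, the HSP70 rows drawn from 5 similar probes are low there, and the HSP90 rows are high on 1 array of each tissue.

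The small heat shock proteins had the highest levels in muscle, where all 3 were called higher (background 20.4%), and all 3 were called lower in hemocytes (background 27.1%). The probe for heat shock protein 23 (cluster028355), named after a small heat shock protein of Drosophila, had levels of 7.41, 7.90 and 7.25 on the muscle arrays. In gills they were -1.89, 0.34 and -0.10, and in the lymphoid organ -0.61, -2.90 and -4.04. In hemocytes they were -4.26, -4.93, -3.34 and -1.12, and in hepatopancreas -3.87, -4.49 and -6.45, where no array detected the probe. The 3 muscle arrays were close together and stood above all 13 others. The muscle difference was 10.38 ± 0.78 (SE; adjusted p = 5.18e-08, limma), and the bound on the fold was 961. The bound arises because, on an array of a tissue that never detected the probe, its level was raised to the lowest detected level of that array. Undetected arrays of a tissue that detected the probe on another array kept their measured levels. A fold given as a bound or as "at least", here and below, is therefore not a strict lower limit where a tissue detected the probe on only some arrays. The difference was 10.68 within slide 1 and 10.16 within slide 2. Below muscle, no neighbouring tissues in the order of levels differed, although hepatopancreas was at least 10-fold lower (adjusted p = 5.28e-05) and hemocytes were 9.80-fold lower (adjusted p = 0.00114) than the mean of the others.

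The probe described only as small heat shock protein (cluster022933) separated the tissues more finely. Its muscle levels were 4.60, 6.60 and 5.47, its gill levels 2.51, 3.30 and 2.64, and its lymphoid organ levels 1.74, 1.97 and 2.75. In hepatopancreas they were -1.14, -1.48 and 0.16, and in hemocytes -3.43, -4.11, -1.07 and -3.54. Every muscle array was above every other array, and the gill and lymphoid arrays lay above those of hepatopancreas and hemocytes. The muscle difference was 5.28 ± 0.56 (38.9-fold, adjusted p = 2.31e-06), the hemocyte difference -5.47 ± 0.50 (44.2-fold lower, adjusted p = 5.46e-07) and the hepatopancreas difference -2.69 ± 0.56 (6.46-fold lower, adjusted p = 0.000926). In the order of levels muscle exceeded gills and the lymphoid organ exceeded hepatopancreas, with arrays that did not overlap. Hepatopancreas exceeded hemocytes by the pairwise test (4.66-fold, adjusted p = 0.00995), although hemocytes 3 lay above 2 of the 3 hepatopancreas arrays, while gills and the lymphoid organ did not differ (adjusted p = 0.66). It was also called higher in gills (3.61-fold, adjusted p = 0.0294), a call lost without gills 2 or without gills 3, where the adjusted p reached 0.165.

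The alpha-crystallin A chain probe (cluster034334), named after the vertebrate lens protein that is itself a small heat shock protein, was far less even. On the muscle arrays its levels were 7.92, 1.49 and 1.42. The other tissues gave -5.69, -7.34 and -2.18 in gills, -4.53, -6.54, -5.28 and -5.77 in hemocytes, -4.07, -4.45 and -5.89 in hepatopancreas and -4.66, -5.66 and 0.10 in the lymphoid organ. All 3 muscle arrays were above the others, but 1 of them stood well above its fellows, and outside muscle the probe was detected on 1 gill array and 1 lymphoid array. The muscle difference was 8.31 ± 1.32 (adjusted p = 0.000116), or 181-fold with levels raised in the tissues that never detected the probe. Gills 1, gills 2 and lymphoid organ 2 kept levels under the lowest detected level of their arrays, so 181-fold is not a strict lower limit. Within slide 2, which holds 1 muscle array, the difference was 5.26 with an adjusted p of 0.088. The call as lower in hemocytes (at least 3.06-fold, adjusted p = 0.0396) was lost when any 1 of 7 arrays was left out (adjusted p up to 0.113).

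**Figure D2:**
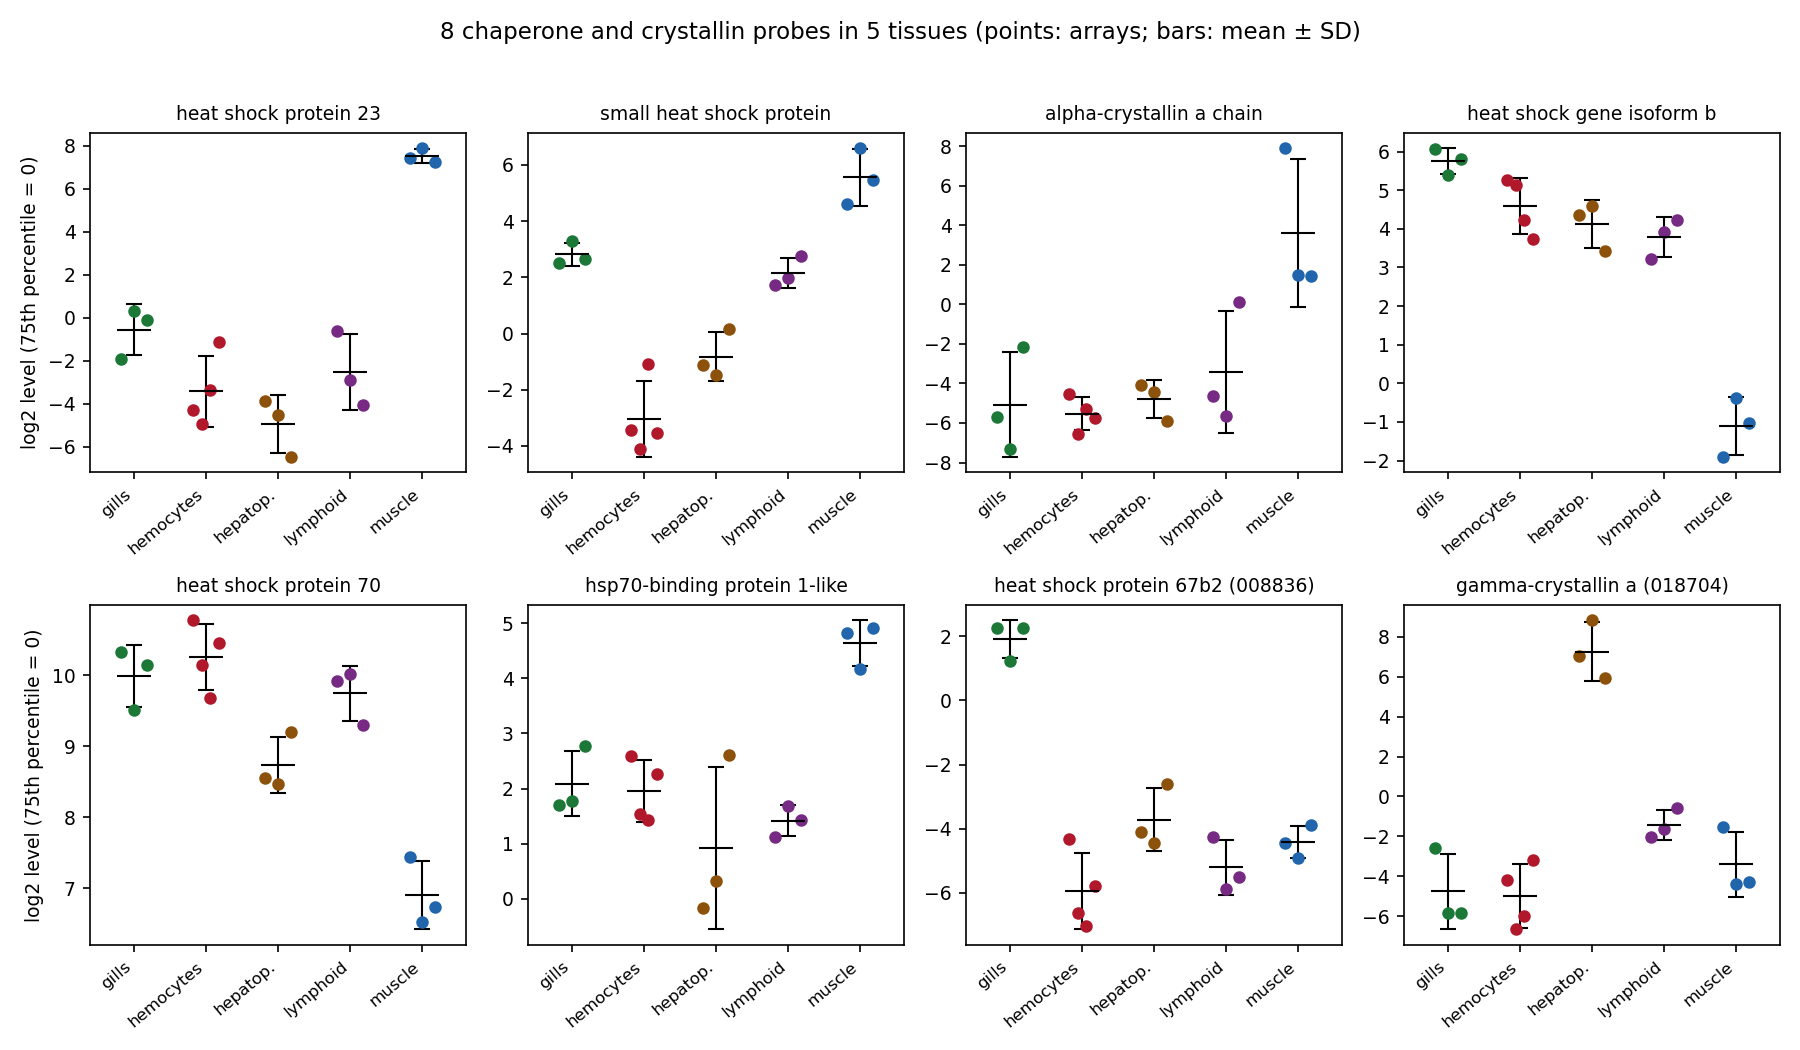
Log2 level of 8 members on every array (points), with the mean and SD of each tissue (bars), 1 panel per member. The muscle arrays of heat shock protein 23 sit between 7.25 and 7.90, above all other arrays, and those of heat shock gene isoform b between -1.90 and -0.39, below all other arrays.

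CCT subunits were higher in muscle without exception among those tested. All 8 tested subunits were called higher in muscle (background 20.4%), and 5 of the 8 were called lower in hepatopancreas (background 23.4%). Their median difference in muscle was 2.28, where that of all tested probes was -0.13. None was called in gills, hemocytes or the lymphoid organ. A ninth probe, chaperonin containing subunit 2-like (cluster012081), was detected on 1 gill array only and was not tested. Subunit 7 (cluster024246) had muscle levels of 6.04, 8.06 and 8.70, against 4.59, 5.38 and 5.21 in gills and 4.62, 5.21, 4.81 and 6.03 in hemocytes. In hepatopancreas it had 3.16, 3.71 and 4.75, and in the lymphoid organ 5.03, 4.43 and 4.75. The lowest muscle array was just above the highest hemocyte array, so the groups did not overlap, and this held for subunit 7 alone. Its muscle difference was 2.89 ± 0.47 (7.41-fold, adjusted p = 0.000152).

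The other subunits ranged from 2.83-fold to 7.17-fold higher in muscle. Subunit alpha (cluster021695) had muscle levels of 2.72, 4.53 and 4.89 and a difference of 2.84 ± 0.63 (adjusted p = 0.00205). Subunit gamma (cluster015216) had muscle levels of 3.90, 5.60 and 6.41 and a difference of 2.50 ± 0.55 (adjusted p = 0.00189). For both, muscle 1 lay within the range of the other tissues and muscle 2 and 3 lay above it. Theta (cluster023025) was 5.07-fold higher (adjusted p = 0.000864), delta (cluster011041) 4.63-fold (adjusted p = 0.00143) and beta (cluster005354) 3.60-fold (adjusted p = 0.008). Zeta (cluster033098) was 2.83-fold higher (adjusted p = 0.0126) and subunit 5 (cluster019757) 2.97-fold (adjusted p = 0.0387), and for subunit 5 the F-test over all tissues did not pass (adjusted p = 0.0796). Muscle 1 was the lowest muscle array for all 8 subunits.

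The 5 subunits lower in hepatopancreas were subunit 7 (difference -1.77, adjusted p = 0.00598), gamma (-1.44, adjusted p = 0.0427), beta (-1.41, adjusted p = 0.0305), zeta (-1.35, adjusted p = 0.0194) and theta (-1.34, adjusted p = 0.0282). In each, hepatopancreas 4 reached the range of other tissues. Scaled on probes detected on every array, subunit 7 was still called and the other 4 were not, with adjusted p between 0.17 and 0.24. The muscle calls fell from 8 to 7 subunits without the second row of slide 2 (subunit 5 then had an adjusted p of 0.0888), to 5 without muscle 2 or without muscle 3, and were 4 within slide 1 and 2 within slide 2. After the mean of each tissue was removed, the 8 probes varied together from array to array, with a mean pairwise correlation of 0.903 over 16 arrays, against 0.017 between all tested probes. With slide row removed too, it was 0.832, against 0.012. Probes on 1 array share its RNA and its labelling, so this is a description of these arrays.

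**Figure D3:**
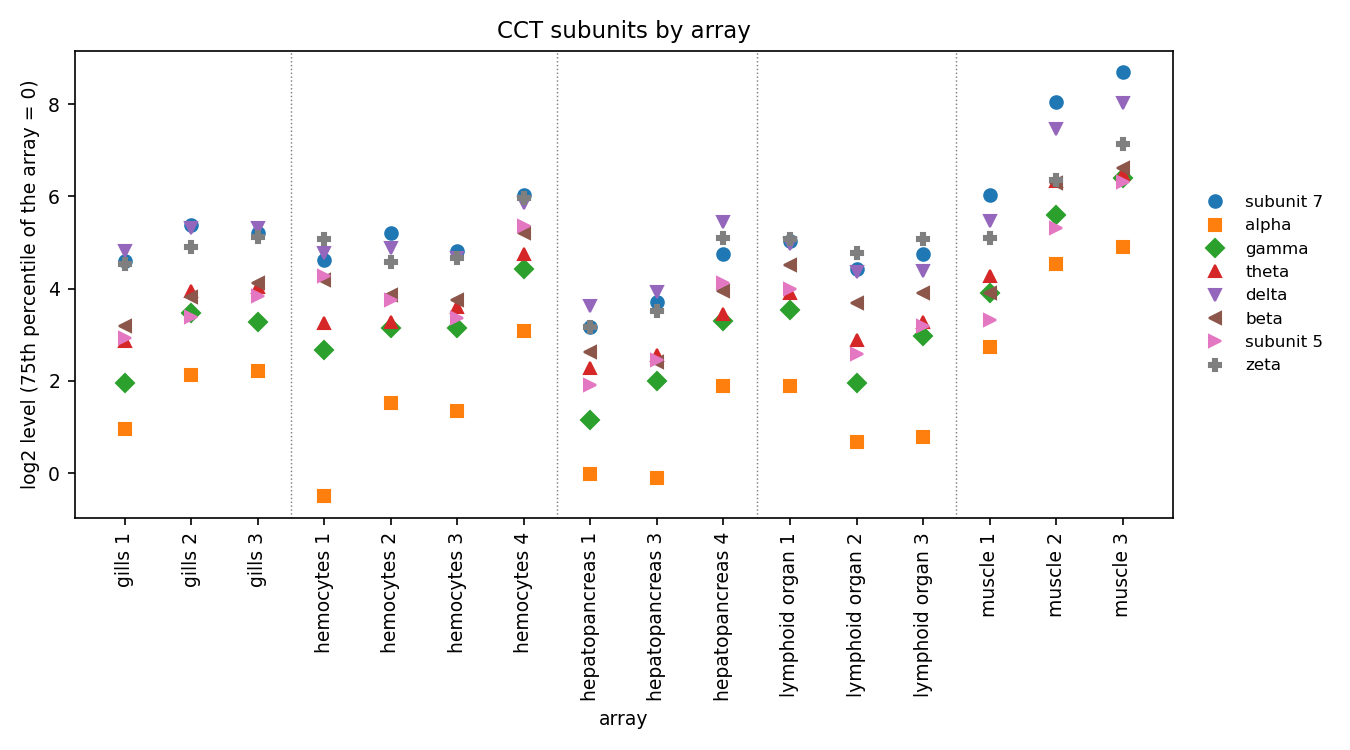
Log2 level of the 8 tested CCT subunits (1 marker shape each) on each of the 16 arrays, grouped by tissue. In every subunit the arrays muscle 2 and muscle 3 lie above muscle 1, and hepatopancreas 4 lies above hepatopancreas 1 and 3.

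The mitochondrial chaperonins, HSP60 and its lid HSP10, differed less between tissues than within them. HSP60 (cluster008858) had levels of 1.31, 1.39 and 3.09 in gills, 0.02, 0.07, 0.32 and 2.59 in hemocytes and 1.92, 1.53 and 3.49 in hepatopancreas. In the lymphoid organ it had 2.31, 0.22 and 1.00, and in muscle -0.36, 1.30 and 2.40. All tissues overlapped, and the F-test gave an adjusted p of 0.353. The 10 kDa probe (cluster009216) had gill levels of 3.19, 2.55 and 4.13, hemocyte levels of 1.19, 1.91, 1.38 and 4.22 and hepatopancreas levels of 2.87, 3.65 and 4.66. Its lymphoid levels were 3.21, 1.31 and 2.55 and its muscle levels 0.96, 2.43 and 3.52. The tissues again overlapped (adjusted p = 0.271 by the F-test), and the arrays that were high for HSP60 in each tissue were also the high ones for HSP10.

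HSP70 is the central chaperone of the cytosol. Of the 15 tested probes for HSP70 and its co-factors, 3 were called higher in muscle (20.0%, background 20.4%) and 7 lower (46.7%, background 18.4%). Of these 7, the 5 HSP70 probes that rose and fell together are described first. The first, designed to a GenBank record of the complete kuruma shrimp hsp70 coding sequence, had muscle levels of 7.44, 6.52 and 6.74. Elsewhere it had 10.34, 9.51 and 10.15 in gills, 10.78, 10.15, 9.69 and 10.45 in hemocytes, 8.56, 8.47 and 9.20 in hepatopancreas and 9.92, 10.02 and 9.30 in the lymphoid organ. Each muscle array was below every other array, and hepatopancreas lay between muscle and the remaining 3 tissues. The muscle difference was -2.79 ± 0.32 (6.91-fold lower, adjusted p = 4.93e-06), and the difference was -2.85 within slide 1 and -2.77 within slide 2. Hemocytes were 2.67-fold higher than the mean of the others (adjusted p = 0.000731). Gills were 2.12-fold higher (adjusted p = 0.0258), a call lost without gills 1 or without gills 3, where the adjusted p reached 0.118.

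The other 4 probes were a second GenBank hsp70 record, a partial GenBank hsp70 record and 2 assembled clusters, cluster016538 and cluster016539. They were lower in muscle by 6.84-fold, 5.55-fold, 7.45-fold and 6.74-fold in that order, with adjusted p from 3.07e-06 to 0.000306 and no overlap between muscle and the other arrays. Over the 16 arrays the 5 probes correlated with each other at 0.824 to 0.999. They may read transcripts of shared sequence and cannot be counted as 5 independent genes. The partial record and cluster016539 were named, and the set of 5 was put together, after their values were seen. All 5 were called higher in hemocytes, by 2.02-fold to 2.67-fold, and for the second GenBank record and cluster016538 this call was lost when arrays were scaled on the probes detected on every array.

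Heat shock cognate 70 (cluster006452), called after the form of HSP70 that cells make without stress, followed another order. It was picked out after its values were seen. Its hepatopancreas levels were 5.64, 6.30 and 7.28 and its muscle levels 2.59, 2.43 and 3.42. Gills gave 4.28, 3.08 and 5.06, hemocytes 5.17, 4.11, 3.23 and 6.48, and the lymphoid organ 5.93, 4.28 and 4.97. Hepatopancreas was the highest tissue by mean and muscle the lowest, with arrays of other tissues overlapping both. Hepatopancreas was 4.65-fold higher (difference 2.22 ± 0.58, adjusted p = 0.00511) and muscle 4.84-fold lower (difference -2.27 ± 0.58, adjusted p = 0.00517).

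Of the remaining HSP70 probes, 1 co-factor had all its muscle arrays above the others, and 1 cluster was called higher in muscle with overlapping arrays. The probe for hsp70-binding protein 1-like (cluster012339), a factor known in mammals for releasing nucleotide from HSP70, had muscle levels of 4.83, 4.16 and 4.92. Other tissues gave 1.71, 1.78 and 2.77 in gills, 2.59, 1.54, 1.43 and 2.27 in hemocytes, -0.16, 0.33 and 2.60 in hepatopancreas and 1.13, 1.68 and 1.44 in the lymphoid organ. The muscle arrays were tightly grouped and above all others. The muscle difference was 3.04 ± 0.47 (8.22-fold, adjusted p = 9.12e-05). Its call as lower in hepatopancreas (3.03-fold, adjusted p = 0.011) was lost without hepatopancreas 1 or 3, where the adjusted p reached 0.12, and under the scaling on probes detected on every array. Cluster011049, described as heat shock protein 70, was undetected in hemocytes and at least 6.90-fold higher in muscle (levels -1.28, 0.30 and 1.41, adjusted p = 0.00619), where its range overlapped those of hepatopancreas and the lymphoid organ. Without muscle 3 that adjusted p was 0.0605.

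Heat shock 70 kDa protein 12A (cluster010871), a distant member of the family, was undetected on every hemocyte and muscle array. Its levels were -0.49, -1.53 and -1.31 in hepatopancreas, -1.10, -1.63 and -2.04 in gills and -2.72, -2.77 and -3.24 in the lymphoid organ. Hepatopancreas was at least 3.15-fold higher (adjusted p = 0.000264), and gills at least 2.08-fold higher (adjusted p = 0.00697), than the mean of the others. Cluster033793, a heat shock protein 70 probe, was the only member called higher in the lymphoid organ. Its lymphoid levels of 0.71, -0.57 and -2.12 reached down into the range of the other tissues, the difference was 2.04 ± 0.61 (4.12-fold, adjusted p = 0.0457), and the call was lost with slide as a block (adjusted p = 0.063) and when any 1 of 9 arrays was left out (adjusted p up to 0.304).

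The other HSP70 probes were also looked at after their values were seen. Heat shock 70 kDa protein 4L-like (cluster002949), of the HSP110 group that exchanges nucleotide on HSP70, was 2.34-fold higher in muscle (adjusted p = 0.0497). Cluster016573 was 5.08-fold lower in hemocytes (adjusted p = 0.043). Heat shock 70 kDa protein 14 and heat shock protein cognate 5, the mitochondrial HSP70 of Drosophila, were called in no tissue (F-test adjusted p = 0.168 and 0.407). Cluster016563 was uneven within tissues, from -3.80 to 3.55 in hemocytes and from -2.76 to 3.71 in muscle, and was not called (F-test adjusted p = 0.478). The HSP70-interacting probe (cluster008860) was detected on 2 gill and 2 lymphoid arrays and was not tested.

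HSP40 proteins, which carry the DnaJ domain and stimulate the ATP use of HSP70, showed no common direction. Of 14 tested members, 4 were higher (28.6%, background 20.4%) and 3 lower (21.4%, background 18.4%) in muscle, which is close to all probes. In hepatopancreas 1 was higher (7.14%, background 20.5%) and 5 lower (35.7%, background 23.4%). DnaJ subfamily C member 7-like (cluster031130), known in mammals as a co-chaperone that binds both HSP70 and HSP90, had muscle levels of 1.32, 2.40 and 0.98 and hepatopancreas levels of -3.11, -3.65 and -2.81. Gills gave -1.24, -0.72 and -0.95, hemocytes -1.26, -0.16, 0.55 and -0.59, and the lymphoid organ -1.41, 0.85 and -0.51. Muscle lay above, and hepatopancreas below, all arrays of the other tissues. It was 6.90-fold higher in muscle (difference 2.79 ± 0.47, adjusted p = 0.000226) and 8.93-fold lower in hepatopancreas (difference -3.16 ± 0.47, adjusted p = 5.29e-05).

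The ribosome-linked or nuclear members C2 and C21 were higher in muscle too. DnaJ C21-like (cluster013057), whose yeast relative acts in ribosome assembly, had muscle levels of 2.51, 2.67 and 3.14, above all other arrays, and was 3.15-fold higher (adjusted p = 0.00122). DnaJ C2 (cluster034904), which in yeast and mammals acts at the ribosome, had muscle levels of 2.92, 3.62 and 4.07 that overlapped hemocyte and hepatopancreas arrays, and was 3.44-fold higher (adjusted p = 0.00835, and 0.0602 without muscle 3). DnaJ C16-like (cluster013579) was 4.35-fold lower in hepatopancreas (levels -4.14, -4.56 and -2.92, adjusted p = 0.000659), below all other arrays and detected on 1 of the 3. DnaJ C10 (cluster012774), a reductase of the endoplasmic reticulum in mammals, was undetected in muscle and at least 2.31-fold higher in hemocytes (levels -2.25, -1.27, -1.23 and -0.23, adjusted p = 0.0155, and 0.0857 without hemocytes 4). Its calls as lower in hepatopancreas (2.44-fold, adjusted p = 0.0485) and muscle (at least 1.33-fold, adjusted p = 0.0418) were lost under 19 and 20 of the 29 alternatives fitted.

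The remaining HSP40 probes, named after their values were seen, gave smaller differences. DnaJ C1-like was 4.13-fold lower in muscle, with all 3 muscle arrays below the rest (adjusted p = 0.00912), and the dna-j hsp40 probe cluster020729 was 2.43-fold lower there (adjusted p = 0.0144). DnaJ B6-like was 3.35-fold higher in muscle (adjusted p = 0.0494). In hepatopancreas, DnaJ A2-like was 3.08-fold lower (adjusted p = 0.00586), DnaJ C8-like was 2.76-fold lower (adjusted p = 0.00621) and DnaJ C22-like was 4.58-fold higher (adjusted p = 0.0236). DnaJ C13, DnaJ C17 and the GenBank hsp40 probe were called in no tissue (F-test adjusted p = 0.934, 0.29 and 0.192). DnaJ C27 and a second dna-j hsp40 probe (cluster008706) were not tested.

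**Figure D4:**
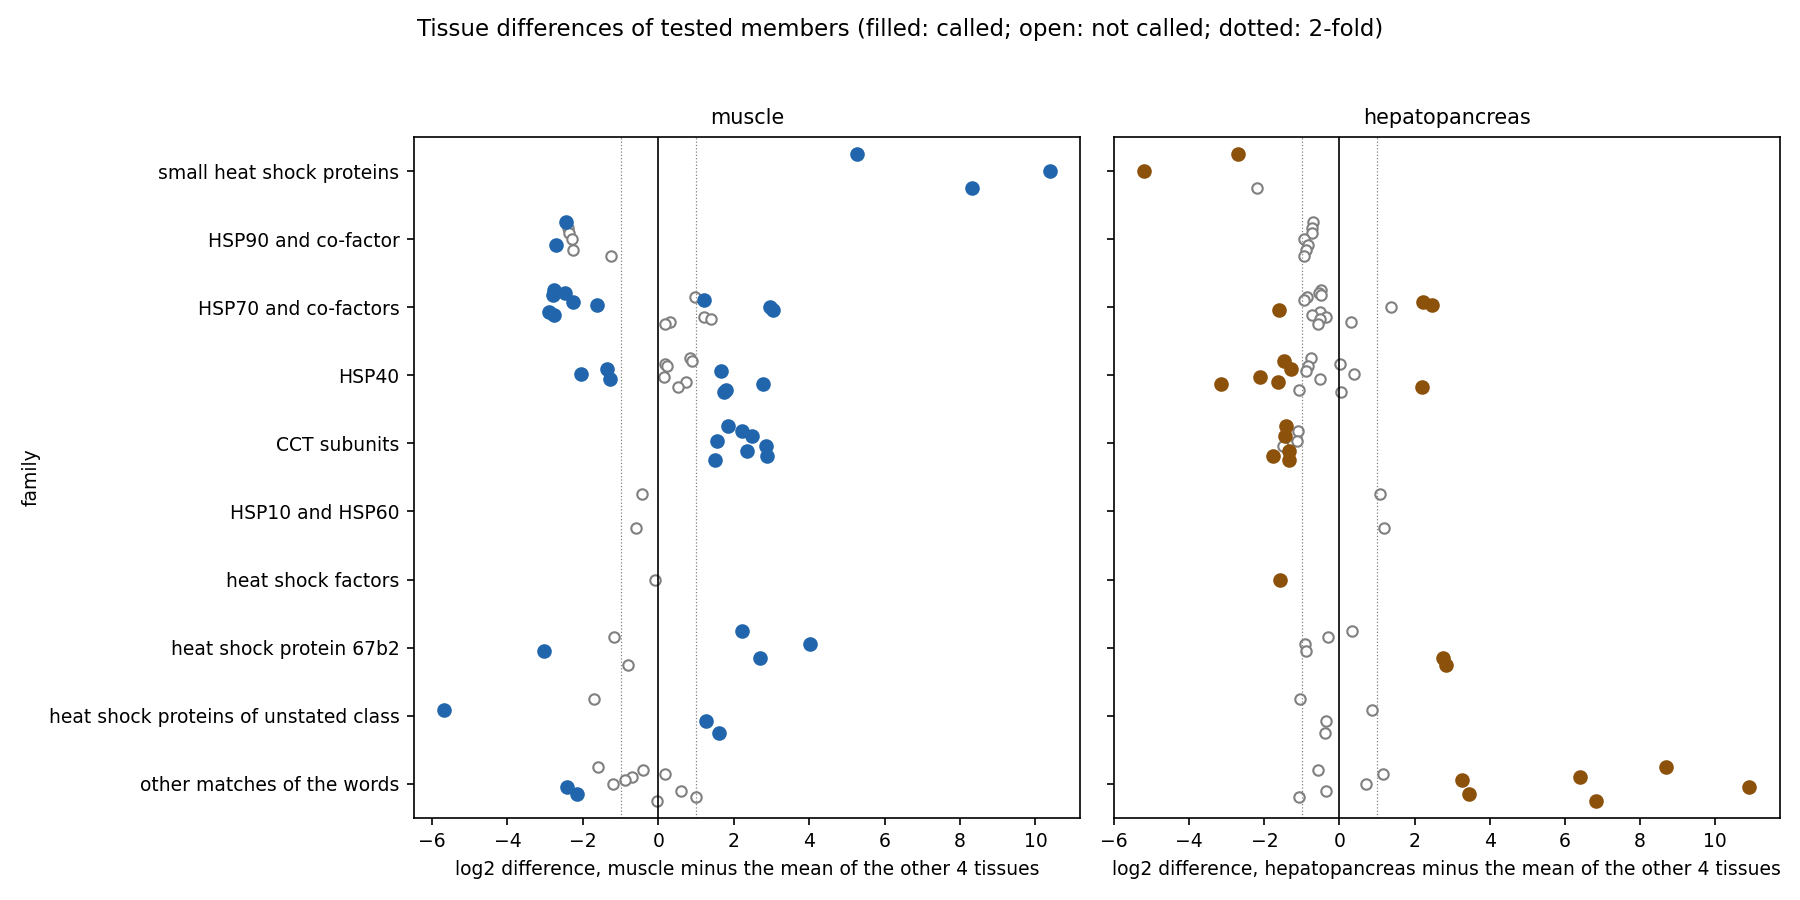
Log2 difference of muscle and of hepatopancreas from the mean of the other 4 tissues for each tested member, by family (filled points were called, open points were not). The 8 CCT points lie between 1.50 and 2.89 in muscle and below 0 in hepatopancreas, while the HSP40 and HSP70 points lie on both sides of 0.

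HSP90 varied widely within tissues. There were 6 HSP90 probes and 1 for HSP83, the name of the cytosolic HSP90 in Drosophila, and 5 of the HSP90 clusters and the HSP83 cluster share 1 locus of the transcript assembly in the deposited annotation. The 6 HSP90 probes correlated with each other at 0.991 to 0.999 over the 16 arrays, so their mean is given as 1 measure. It was 4.19, 3.94 and 6.18 in gills, 3.78, 3.68, 4.16 and 7.15 in hemocytes, and 1.97, 1.36 and 6.43 in hepatopancreas. In the lymphoid organ it was 5.86, 4.15 and 4.43, and in muscle 1.23, 1.02 and 3.67. In each tissue 1 array stood above the others, which were close to each other. The highest array exceeded the lowest by 4.72-fold in gills, 11.1-fold in hemocytes, 33.5-fold in hepatopancreas, 3.26-fold in the lymphoid organ and 6.26-fold in muscle. The SD within tissues had a median of 1.73 over the HSP90 probes, against 0.897 over the tested members and 0.822 over all tested probes.

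With that spread over the 16 arrays, none of the 7 HSP90 and HSP83 probes passed the F-test over tissues. Muscle had the lowest mean for all 7, with a median difference of -2.36, and 2 of them were called lower there (28.6%, background 18.4%). Cluster000951 had muscle levels of 1.23, 0.64 and 3.01 and a difference of -2.72 ± 0.92 (6.57-fold lower, adjusted p = 0.0282). The GenBank hsp90 probe had muscle levels of 1.06, 1.30 and 3.72 and a difference of -2.44 ± 0.93 (5.43-fold lower, adjusted p = 0.0471). The arrays hepatopancreas 1 and 3 overlapped muscle for both. The first call was lost without muscle 1 or muscle 2 (adjusted p up to 0.15) and the second when any 1 of 8 arrays was left out (adjusted p up to 0.198) and with slide as a block (adjusted p = 0.06). The tissue result changed with the place of the arrays on the slides. With slide row (the set of 4 arrays that share a slide and a first position number, an analysis added after the values were seen) as a block, all 7 probes passed the F-test (adjusted p from 0.000134 to 0.00367) and all 7 were called lower in muscle, with a median difference of -2.78 and adjusted p from 0.000115 to 0.0173. Without the 4 arrays of the second row of slide 2, all 7 again passed both, with a median muscle difference of -2.43 and adjusted p up to 0.0346 in muscle. That row was singled out because it held the highest HSP90 array of 4 tissues, so removing it or fitting it narrows their spread by construction. These fits are thus no independent test, and the 6 HSP90 probes count as 1 measure. The probe for the activator of the HSP90 ATPase (AHA1-like) was detected on 7 of 16 arrays and was not tested.

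HSP83 (cluster000953) varied with the HSP90 probes from array to array. Its levels were 2.15, 1.36 and 4.67 in gills, 0.01, 1.45, 1.34 and 5.28 in hemocytes and -0.36, -0.77 and 4.82 in hepatopancreas. In the lymphoid organ they were 4.22, 2.32 and 2.22, and in muscle -0.86, -0.11 and 3.90. The same array was highest for HSP83 and for HSP90 in each of the 5 tissues, namely gills 3, hemocytes 4, hepatopancreas 4, lymphoid organ 1 and muscle 3. Over the 16 arrays, after the tissue means were removed, Pearson's r between HSP83 and the HSP90 mean was 0.971 and Spearman's rho 0.812. Without hepatopancreas 4 and hemocytes 4, the 2 arrays farthest from the median, r was 0.950.

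Other chaperones shared part of this pattern. HSP60 had r = 0.877 with the HSP90 mean (rho 0.706, and r = 0.848 without those 2 arrays), DnaJ C2 had 0.873 (rho 0.779, 0.743 without them) and HSP10 had 0.806 (rho 0.662, 0.737 without them). The 8 CCT subunits had a median r of 0.744 and heat shock cognate 70 had 0.756. Among the 65 other tested members, 17 (26.2%) had r of at least 0.7, as did 378 of all 10311 other tested probes (3.67%). For 11 of the 65 (16.9%) the same array was highest in all 5 tissues, as for 113 of all others (1.10%). In the other direction, a heat shock protein 67b2 probe (cluster012575) had r = -0.87, the mu-crystallin probe cluster009371 had -0.62, heat shock gene isoform b had -0.60 and heat shock factor-binding protein 1 had -0.59. Without hepatopancreas 4 and hemocytes 4 these were -0.79, -0.15, -0.34 and -0.42 in that order. These are descriptions over 16 arrays, with no p, and the probes of an array share its RNA, labelling and scaling.

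The 9 probes next in rank after HSP83 over all tested probes were, in order, small subunit processome component 20, cg10174, N-acetyltransferase 10, midasin, nucleoporin 35, fam50a, glycoprotein 93, integrator complex subunit 12 and failed axon connections protein, with r from 0.942 to 0.899. None of these carries the words that chose the members, but a description without those words can still belong to a chaperone, and this was not examined.

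The arrays with high HSP90 followed their place on the slides. The array names give a slide and a first position number of 1 or 2, which together mark 4 sets of 4 arrays, called slide rows here. The second row of slide 2 held gills 3, hemocytes 4, hepatopancreas 4 and muscle 3, each the highest for HSP90 in its tissue, and no other array. Lymphoid organ 1, on slide 1, was the fifth high array. This row and the samples on it cannot be told apart. With tissue and slide removed, r was 0.962 for HSP83 and 0.841 for HSP60, but slide alone does not take out the row. In analyses added after the values were seen, with tissue and slide row removed, r was 0.822 for HSP83, 0.839 for DnaJ C2, 0.483 for HSP60, 0.256 for HSP10 and -0.20 for heat shock cognate 70, and the CCT subunits had a median of 0.474. Members with r of at least 0.7 were then 6 of 65 (9.23%), beside 4.64% of all other tested probes. Over the 12 arrays outside that row, with tissue removed, they were 4 of 65 (6.15%), beside 2.40%. There r was 0.748 for HSP83, 0.687 for HSP60, 0.404 for HSP10, 0.365 for DnaJ C2 and 0.363 for heat shock cognate 70. The CCT subunits had a median r of 0.195 over these arrays, and none reached 0.7. Both counts were below the 17 of 65 found over the 16 arrays with tissue alone removed. Among the probes named above with negative r, cluster012575 had -0.26 with slide row removed and cluster009371 had -0.52. Heat shock gene isoform b then had -0.59 and heat shock factor-binding protein 1 had -0.64. Over the 12 arrays these were -0.40, 0.05, -0.55 and -0.62 in that order. The share of probes detected on these 5 arrays ranged from 41.0% to 82.3% and the 75th percentile of signal from 48.3 to 172.4 units, which covers much of the range of all arrays. The part of detection and signal in the pattern was not tested.

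**Figure D5:**
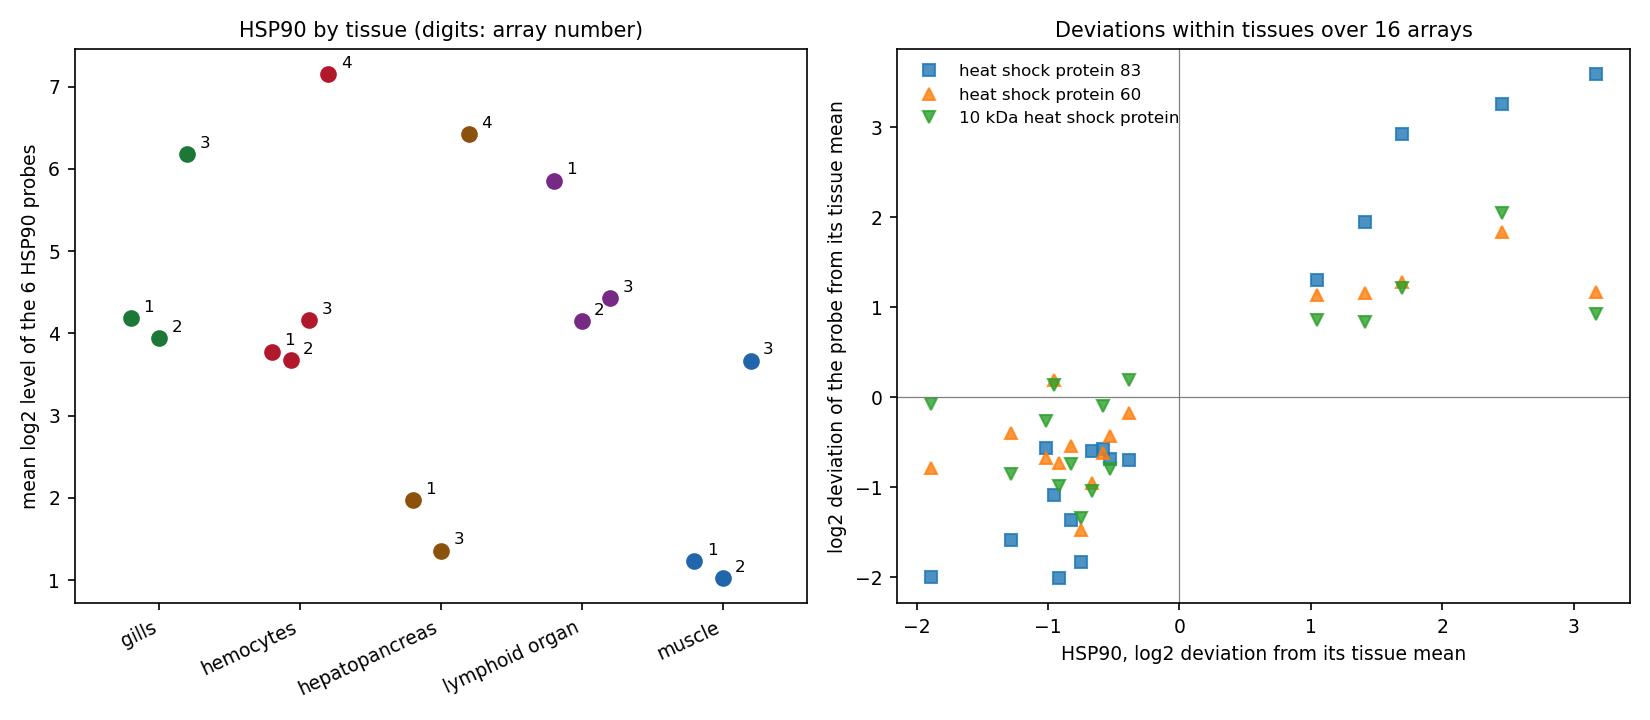
Left, mean log2 level of the 6 HSP90 probes on each array, by tissue, with the array number beside each point. Right, deviation from the tissue mean of HSP83, HSP60 and the 10 kDa protein (vertical axis, log2) against that of HSP90 (horizontal axis, log2) on the same 16 arrays. Hepatopancreas 4 and hemocytes 4 stand farthest to the right.

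Heat shock factors are the transcription factors that switch on heat shock genes, and heat shock factor-binding protein 1 is a small protein that restrains them in mammals and worms. The binding protein (cluster003225) had hemocyte levels of 0.93, 1.36, 0.93 and 0.95 and hepatopancreas levels of -1.30, -0.71 and -1.93. In gills it had -0.32, -0.08 and -0.64, in the lymphoid organ 0.20, 0.69 and 0.59, and in muscle 0.08, -0.51 and 0.10. All hemocyte arrays were above, and all hepatopancreas arrays below, those of every other tissue. Hemocytes were 2.57-fold higher (difference 1.36 ± 0.29, adjusted p = 0.00119) and hepatopancreas 2.99-fold lower (difference -1.58 ± 0.32, adjusted p = 0.000843). The hepatopancreas difference was -0.93, under 2-fold, when arrays were scaled on the probes detected on every array. The heat shock factor itself (cluster035470) was detected on 1 gill, 2 hemocyte and 1 lymphoid array, so its level could not be compared.

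The 6 probes named heat shock protein 67b2, after a Drosophila gene of the 67B heat shock cluster, had different tissue patterns although they share a description. Cluster008836 had gill levels of 2.25, 1.23 and 2.25, while the other 13 arrays lay between -7.02 and -2.59. The gill arrays were far above all others, most of which did not detect the probe. It was at least 55.0-fold higher in gills (difference 6.73 ± 0.58, adjusted p = 5.56e-07), and the difference was 7.08 within slide 1 and 6.57 within slide 2. The probe was also called lower in hemocytes (difference -3.08, adjusted p = 0.000168) and in the lymphoid organ (4.48-fold, adjusted p = 0.0288). In both comparisons the mean of the other tissues holds the high gill levels. The lymphoid call was lost without lymphoid organ 2 or 3, where the adjusted p reached 0.173. Cluster012575 was also higher in gills (levels 2.89, 3.31 and 0.00, 16.8-fold, adjusted p = 0.00125) and in hepatopancreas (levels 2.12, 2.18 and -1.05, 7.17-fold, adjusted p = 0.00632). Gills 3 overlapped hepatopancreas, and the hepatopancreas call was lost without hepatopancreas 1 or 3, where the adjusted p reached 0.0573. In hemocytes it was 12.7-fold lower (adjusted p = 0.000398).

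Cluster010155 was the 67b2 probe of muscle, with levels of 2.52, 3.36 and 3.58 there, against -0.54, 0.74 and 0.08 in gills and -1.82, -2.46, -1.19 and -3.20 in hemocytes. In hepatopancreas it had -0.49, -0.75 and -1.18 and in the lymphoid organ -1.07, -0.68 and -0.04. Muscle was above and hemocytes were below all others. It was 16.3-fold higher in muscle (adjusted p = 2.52e-06) and 6.17-fold lower in hemocytes (adjusted p = 4.32e-05). Cluster011078 ran the opposite way, with muscle levels of -0.37, -2.04 and -0.94, below all other arrays (8.24-fold lower, adjusted p = 0.000222), and was 3.86-fold higher in hemocytes (adjusted p = 0.00266). Cluster011474 was undetected in hemocytes, at least 6.50-fold lower there (adjusted p = 1.58e-05), and at least 4.81-fold higher in hepatopancreas (adjusted p = 0.00361) and 4.63-fold higher in muscle (adjusted p = 0.00495, and 0.0641 without muscle 1). Cluster004565, named after its values were seen, was 4.66-fold higher in muscle (adjusted p = 0.00427). Across arrays, with tissue means removed, these 6 probes had a mean pairwise correlation of -0.06, unlike the 0.903 of the CCT subunits, and that difference was not tested.

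Heat shock proteins of no stated class included the member with the largest difference below the other tissues in muscle among the 16 called lower there. Heat shock gene isoform b (cluster033340) had muscle levels of -1.90, -0.39 and -1.04 and gill levels of 6.07, 5.41 and 5.81. Hemocytes gave 5.26, 5.13, 4.23 and 3.73, hepatopancreas 4.35, 4.59 and 3.43, and the lymphoid organ 3.22, 3.92 and 4.23. Gill arrays were above all others and muscle arrays below all others. Muscle was 51.1-fold lower (difference -5.67 ± 0.40, adjusted p = 2.65e-08), gills were 7.53-fold higher (difference 2.91 ± 0.40, adjusted p = 7.96e-05) and hemocytes 2.72-fold higher (adjusted p = 0.00357). The muscle difference was -5.94 within slide 1 and -5.50 within slide 2.

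The heat shock protein domain protein (cluster027245) was another gill probe, with levels of 2.13, 0.48 and 4.08 there and between -5.62 and -2.09 elsewhere. It was at least 51.9-fold higher in gills (adjusted p = 1.61e-05), where the 3 arrays were above all others but spread widely. Cluster036169, described as heat shock protein, was 3.03-fold higher in muscle (adjusted p = 0.00136) and 2.40-fold higher in gills (adjusted p = 0.0154), with 2.11-fold lower levels in hemocytes (adjusted p = 0.00818) and 2.66-fold lower levels in the lymphoid organ (adjusted p = 0.0157). The last 3 of these calls were each lost when some single arrays were left out (adjusted p up to 0.10, 0.0367 with a difference under 2-fold, and 0.125 in that order). Cluster035175 was 2.39-fold higher in muscle (adjusted p = 0.01, and up to 0.0892 without muscle 2 or 3). Cluster003135 was detected on 4 arrays and was not tested.

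The 12 probes set aside as other matches of the words included 6 for gamma-crystallin A, named after a vertebrate lens protein that is not known as a chaperone. Of the 5 tested, 4 were called higher in hepatopancreas (background 20.5%) and 4 lower in hemocytes (background 27.1%). Cluster018704 had hepatopancreas levels of 7.04, 8.82 and 5.92, with -2.03, -1.65 and -0.59 in the lymphoid organ and between -6.66 and -1.51 elsewhere. The hepatopancreas arrays were far above all others, and the lymphoid arrays came next. The hepatopancreas difference was 10.91 ± 0.85 (adjusted p = 5.36e-08). This probe was also the only member called lower in gills (17.4-fold, adjusted p = 0.00269). There the mean of the other tissues holds the high hepatopancreas levels, and the hemocyte difference, -4.43, was lower than that of gills, -4.12. The other 3, cluster000386, cluster034871 and cluster009257, were at least 320-fold, 91.1-fold and 79.7-fold higher in hepatopancreas, with all 3 arrays above every other array. The probe cluster012660 was not called (F-test adjusted p = 0.0655), and cluster004088 was not tested.

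Mu-crystallin, in vertebrates an enzyme and thyroid hormone binder, had 2 probes. Cluster009371 had hepatopancreas levels of 2.02, 1.76 and -1.68, of which the last lay within the range of gills and hemocytes, and was 9.57-fold higher there (adjusted p = 0.000648). It was 5.35-fold lower in the lymphoid organ (adjusted p = 0.028), a call lost when any 1 of the 3 lymphoid arrays was left out (adjusted p up to 0.145). Cluster008624 was not called (F-test adjusted p = 0.234). Of the probes for proteins that associate with the small heat shock protein HSPB1, cluster032945 was at least 8.90-fold higher in hepatopancreas (adjusted p = 6.52e-05) and cluster004110 at least 2.26-fold higher in hemocytes (adjusted p = 0.0101). The t-complex protein 11-like and Bardet-Biedl chaperonin probes were called in no tissue (F-test adjusted p = 0.85 and 0.557).

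Other genes of protein folding that do not carry these words were taken by a word list of 55 probes, of which 52 were tested. In muscle 15 were higher (28.8%, background 20.4%) and 13 lower (25%, background 18.4%). In hepatopancreas 8 were higher (15.4%, background 20.5%) and 14 lower (26.9%, background 23.4%), and in hemocytes 5 were higher (9.62%, background 18.8%) and 4 lower (7.69%, background 27.1%). Gills had 2 higher and 4 lower (backgrounds 9.15% and 8.16%), and the lymphoid organ 2 and 0 (backgrounds 6.42% and 2.82%). Prefoldin is the complex that hands unfolded actin and tubulin to CCT. Of its 6 probes 5 were higher in muscle and lower in hepatopancreas. Prefoldin subunit 5 was 7.26-fold higher in muscle (adjusted p = 1.34e-05), subunit 6 was 7.19-fold higher (adjusted p = 9.83e-06) and subunit 2-like was 4.50-fold higher (adjusted p = 0.000201). The exception, an unconventional prefoldin that binds an RNA polymerase subunit, was lower in muscle (difference -1.44, adjusted p = 0.00861).

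The prefoldins above, and unc-45, the nascent polypeptide-associated complex, Cdc37 and calreticulin here, were named after their values were seen. The probes with the largest called differences follow them. Unc-45 homolog B-like, a chaperone of myosin, had muscle levels of 1.16, 2.04 and 4.12 and was 10.5-fold higher there (adjusted p = 3.25e-05). The alpha subunit of the nascent polypeptide-associated complex, which meets new chains at the ribosome, was 7.25-fold higher in muscle (adjusted p = 4.27e-06). Cdc37, which brings kinases to HSP90, was lower in hepatopancreas (difference -2.06, adjusted p = 7.4e-05), and calreticulin, a chaperone of the endoplasmic reticulum, was lower in muscle (difference -2.00, adjusted p = 0.00725). A serologically defined colon cancer antigen 10 probe (cluster008431), a cyclophilin-type isomerase, was 53.9-fold higher in muscle (adjusted p = 5.36e-07) and 23.6-fold lower in hemocytes (adjusted p = 1.77e-06). A serine/threonine kinase peptidyl-prolyl isomerase probe (cluster036167) had gill levels of 4.20, 3.01 and 1.78, above every other array, and was at least 26.9-fold higher in gills (adjusted p = 3.73e-05). A second antigen 10 probe (cluster029800) was 23.4-fold higher in hepatopancreas instead. The STIP1-like U-box protein, a ubiquitin ligase known in mammals for taking clients from HSP70, was 14.6-fold higher in hepatopancreas (adjusted p = 0.00242). It was 33.2-fold lower in muscle (adjusted p = 0.000344), where levels of 0.26, 3.50 and -3.06 spread widely, and both tissues overlapped others. A cyclophilin-RNA interacting protein probe (cluster022003) was 22.6-fold higher in hepatopancreas and 10.4-fold lower in muscle (adjusted p = 0.000367 and 0.00428). For a peptidyl-prolyl isomerase probe (cluster036933) these were 15.9-fold and 17.9-fold (adjusted p = 5.19e-05 and 4.79e-05).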

How the data were processed

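Expression was measured on 16 single-colour arrays. Processed signal intensities and detection flags were deposited as 1 table, made with Agilent Feature Extraction 10.7.3.1 per the submitters' processing notes. The authors' deposited series matrix holds log2 signal minus 1 constant per array. The genome build is not given in the sources used here.

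From the intensities, 60 control features were left out, compromised spots were set to missing, and levels were computed as log2 of signal over each array's 75th percentile. The 10317 probes that 1 tissue or more detected throughout (compromised spots aside) were fitted with limma 3.58.1 in R 4.3.3 (means of 5 tissues, trended prior), with Benjamini-Hochberg adjustment over all tested probes, and calls needed an adjusted p below 0.05 and at least 2-fold. The fit was tested on simulated data. Hybridisation precision is limited by the 3 or 4 arrays per tissue. Alternatives covered scaling, filter, floor, slide, slide row (added after the values were seen), replicate block and left-out arrays.

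The members and word lists were chosen with earlier results of these data known. Members named by rule (43) are, per family, the highest in mean level, up to 4 with the smallest F-test p, the largest called difference per tissue, and every CCT subunit. The 36 others were named after their values were seen.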

Additional observations from a re-analysis of the deposited data

Results flagged for a closer look

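Among 43 groups of 4 hemocyte arrays, 2 held an array far from the other 3, where chance flags about 1 group in 20. Heat shock factor-binding protein 1 (cluster003225) had a level of 1.36 on hemocytes 2, with the nearest of the other arrays at 0.95. That gap was 0.945 of the range of the 4 arrays. For the HSP90 probe cluster000951, hemocytes 4 had a level of 7.21 and the nearest array 3.94, a gap of 0.915 of the range. The tissues with 3 arrays were not examined in this way.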

How the results depend on the processing

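Of the 87 called differences of members named by rule, none changed direction under the alternatives run, 23 kept their call under each of them, and 64 lost it under at least 1. Floor and series matrix values lost no call, the slide block lost 3, slide row as a block 1, leaving out the second row of slide 2 lost 15, scaling on probes detected on every array lost 12, and fits within slide 1 and slide 2 lost 42 and 56, with 1 or 2 arrays per tissue in each. Outside single slides, the share of all tested probes passing the F-test moved too, between 54.7% (no detection filter) and 74.3% (without hepatopancreas 4). It was lower within a single slide, so the counts below do not by themselves set the members apart. Counts of called members moved as follows from 47 by the F-test and, higher and lower, 10 and 1 in gills, 10 and 16 in hemocytes, 11 and 14 in hepatopancreas, 1 and 3 in the lymphoid organ and 23 and 16 in muscle. Within slide 1 there were 29 by the F-test, 1 higher and 0 lower in gills, 3 higher in hemocytes, 4 lower in hepatopancreas, 0 and 0 in the lymphoid organ, and 4 CCT subunits higher in muscle. Within slide 2 there were 25, then 3 and 2 in gills, 1 and 10 in hemocytes, 3 lower in hepatopancreas, 0 and 0 in the lymphoid organ, 5 and 6 in muscle, and 2 CCT subunits. With slide as a block, or with no detection filter, the lymphoid organ had 0 higher members. Quantile normalization gave 3 higher and 5 lower in the lymphoid organ, and scaling on probes detected on every array gave 5 higher in hemocytes and 5 lower in hepatopancreas. With slide row as a block, or without the second row of slide 2 (both chosen after seeing the data), the lymphoid organ had 8 higher, and the second also gave 6 higher and 2 lower in gills and 27 lower in hepatopancreas. Without gills 1, muscle 1 and hemocytes 4 together, gills had 4 lower and the lymphoid organ 0 higher. With 1 probe per description there were 6 lower in hemocytes, 5 higher in hepatopancreas, and 0 and 0 in the lymphoid organ.

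Leaving out 1 array at a time gave 37 to 56 by the F-test, 6 to 12 higher and 1 to 4 lower in gills, 7 to 11 and 13 to 17 in hemocytes, 9 to 12 and 6 to 28 in hepatopancreas, 0 to 2 and 0 to 4 in the lymphoid organ, 16 to 23 and 12 to 20 in muscle, and 5 to 8 CCT subunits higher in muscle. The lower count in hepatopancreas was 6 without hepatopancreas 1, 9 without hepatopancreas 3 and 28 without hepatopancreas 4. That in gills was 4 without gills 1 and 2 without gills 3. Higher members in the lymphoid organ were 0 without hemocytes 1, 2 or 4, lymphoid organ 1 or 2, or any muscle array, and 2 without hepatopancreas 1. Lower members there were 0 without lymphoid organ 2 or 3. The 5 CCT subunits were those without muscle 2 or muscle 3. The cause of these shifts was not tested.

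With the replicate number as a block, gills had 16 higher and 2 lower members, hepatopancreas 26 lower and the lymphoid organ 2 higher. Same-numbered arrays deviated together (correlation over 0.1) in 8 of 27 pairs, against 17 of 75 pairs with different numbers, so equal numbers were not treated as pairs, and the labels do not say whether they mark the same shrimp. Background correction by normexp was not run, because it needs mean and background signals that are not used here. On gills 1, 601 probes had a signal of exactly 1, the only array with such signals.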
